A study of Mus musculus with 14 samples.

Results

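The Schlafen genes of the mouse form a cluster on chromosome 11, and 7 of them (Slfn1, Slfn2, Slfn3, Slfn4, Slfn5, Slfn8 and Slfn9) were each measured by 1 probe that the platform annotation assigned to that symbol alone. They are 7 of 19938 genes measured in this way. The family was chosen on measured values: the difference between Slfn2 with and without vitamin C grew over the days of the experiment. That difference is therefore described for every member and tested for none. The changes over the days and between the viruses are other contrasts and were tested. For Slfn2, however, the error of these tests is the scatter of the very vitamin C difference it was chosen on, so its fitted differences are given with no p and nothing is read from whether it passed.

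The cells were mouse embryonic fibroblasts (MEFs, primary connective tissue cells grown from embryos), for which the labels name no strain or embryo age. They carried retroviruses for Sox2, Klf4 and Oct4 (SKO, factors that turn fibroblasts into pluripotent cells) or a retrovirus for green fluorescent protein (GFP), the control for infection. All cultures went through 2 rounds of infection and moved on day 2 to embryonic stem cell medium with the cytokine LIF. The treated cultures had 50 µg/ml vitamin C in that medium and the untreated ones none. Each virus, medium and day has 1 array: 12 for SKO cells (days 3, 4, 5, 6, 8 and 10, treated and untreated) and 2 for GFP cells (day 3). Each condition is thus a single culture, the number of arrays limits the precision, and the error in every test is the scatter of this 1 time course, not of independent cultures. The label of the virus was borne out by Pou5f1, the gene of Oct4, which was 7.17 ± 0.17 (SE) higher on the log2 scale in SKO than in GFP cells on day 3 (limma, adjusted p = 2.09e-11). The other factors differed far less: Sox2 was 0.60 ± 0.18 (SE) higher (limma, adjusted p = 0.0337) and Klf4 1.01 ± 0.17 (SE) higher (adjusted p = 0.00128).

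Schlafen proteins are regulators of cell growth and of the response to viruses, and in mouse cells many of the genes are switched on by type I interferon. In that pathway a secreted interferon binds its receptor, the kinases Jak1 and Tyk2 pass the signal on, and a complex with Stat2 and Irf9 binds a promoter element known as the interferon-stimulated response element. Slfn1 and Slfn2 encode the short proteins of the family, Slfn3 and Slfn4 intermediate ones, and Slfn5, Slfn8 and Slfn9 long ones that carry a helicase-like part. Slfn2 is known for holding T cells and monocytes of the mouse in a resting state, and Slfn1 for slowing the growth of cells that are made to express it. In the order of the RefSeq gene table of assembly GRCm38.p6 the members run Slfn5, Slfn9, Slfn8, Slfn2, Slfn1, Slfn4 and Slfn3, with the pseudogene Slfn10-ps between Slfn8 and Slfn2.

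The promoters of Slfn5 and Slfn2 are shown because these members had the widest ranges over the arrays, and those of Slfn8 and Slfn9 because they hold the same motif in like windows. The windows are from the RefSeq promoter table of GRCm38.p6, read 5′ to 3′ on the strand of the gene and ending at the base before its start. For Slfn5 (chr11:82951852-82952101, plus strand) and Slfn2 (chr11:83064862-83065111, plus strand) they hold 250 bases. For Slfn8 (chr11:83020811-83020910, minus strand, the outer of its listed starts) and Slfn9 (chr11:82991831-82991930, minus strand) the nearest 100 bases are given. Capitals mark the core of the interferon-stimulated response element, GAAANNGAA, on either strand.
Slfn5: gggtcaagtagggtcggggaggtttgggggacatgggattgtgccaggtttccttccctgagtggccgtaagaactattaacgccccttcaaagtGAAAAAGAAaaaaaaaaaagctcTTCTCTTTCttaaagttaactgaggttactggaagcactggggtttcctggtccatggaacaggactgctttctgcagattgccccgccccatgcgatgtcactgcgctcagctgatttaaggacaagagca
Slfn2: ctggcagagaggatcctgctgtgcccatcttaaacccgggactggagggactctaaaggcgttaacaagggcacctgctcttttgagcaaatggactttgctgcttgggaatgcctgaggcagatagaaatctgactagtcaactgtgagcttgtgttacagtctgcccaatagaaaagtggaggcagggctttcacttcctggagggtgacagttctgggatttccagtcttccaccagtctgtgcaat
Slfn8: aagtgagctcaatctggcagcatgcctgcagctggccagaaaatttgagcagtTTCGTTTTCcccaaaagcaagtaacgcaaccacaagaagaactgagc
Slfn9: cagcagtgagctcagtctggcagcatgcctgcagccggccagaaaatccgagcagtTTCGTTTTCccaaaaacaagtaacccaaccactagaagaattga
The core was found in the 250-base windows of 3 of the 7 members and in 7.13% of 32851 promoters of the same length. In Slfn5 it stood at 155 to 147 bases before the start on the gene's strand (GAAAAAGAA) and at 132 to 124 bases on the other strand (TTCTCTTTC). In Slfn8 and Slfn9 it was the same run, TTCGTTTTC, on the other strand. It lay 47 to 39 bases before the outer start of Slfn8, 135 to 127 bases before its other listed start, and 44 to 36 bases before the start of Slfn9. These 100-base windows were alike over their length, with 71 of 97 bases equal when Slfn9 was shifted by 3, whereas the next closest pair of windows from different members (Slfn2 and Slfn4) had 35 of 82 equal. The core was not in the windows of Slfn1, Slfn2, Slfn3 and Slfn4. A STAT element, TTCNNNGAA, was in none of the 7 members' windows and in 7.02% of all promoters. The matches describe the letters only. The likeness of Slfn8 and Slfn9 was measured before the start only, and probe sequences were not compared. A probe of 1 of these copies may catch RNA of the other, or of Slfn10-ps, which could not be checked. Their signals are uncertain in this respect, as are those of Slfn3 and Slfn4.

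Slfn2, whose probe is 10379630, had a log2 signal in SKO cells without vitamin C of 5.16, 4.47, 4.92, 4.98, 4.04 and 5.13 on days 3, 4, 5, 6, 8 and 10. With vitamin C it was 4.61, 4.36, 4.82, 5.11, 5.44 and 6.71 on the same days. The arms crossed: the treated array was the lower of the pair up to day 5 and the higher from day 6 on, and the treated array of day 10 was the highest of all 14. The difference with minus without vitamin C was -0.54, -0.11, -0.10, 0.13, 1.40 and 1.58, where day 10 amounts to 3.00-fold. Among all genes that difference stood at percentile 2.09 at the start of the course and at percentile 99.9 at its end. Its least-squares slope of 0.33 per day was the 8th steepest upward slope of the 19938 genes, which is the pattern the family was chosen on. The wide difference of 1.40 on day 8 has a low untreated side, since that array was the lowest of all 14 for Slfn2.

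**Figure D1:**
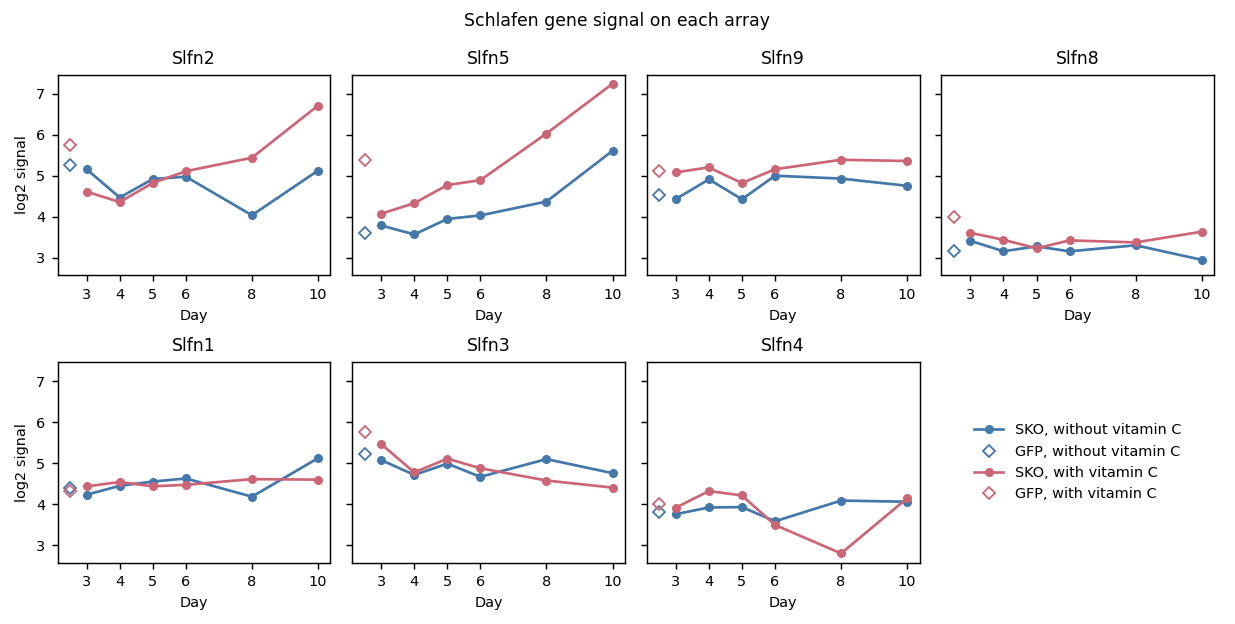
Log2 signal of the 7 Schlafen genes on each of the 14 arrays, by day. Filled points joined by lines are SKO cells and open diamonds are GFP cells of day 3, drawn to the left of day 3; blue is without and red with vitamin C. Slfn5 climbs in both arms, from 3.79 to 5.61 without and from 4.08 to 7.24 with vitamin C, while Slfn2 ends at 6.71 in the red line and at 5.13 in the blue one.

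Slfn5, a long Schlafen (probe 10379615), had log2 signals of 3.79, 3.57, 3.95, 4.03, 4.37 and 5.61 in SKO cells without vitamin C and of 4.08, 4.33, 4.77, 4.89, 6.03 and 7.24 with it, in the order of the days. The treated array was the higher of the pair on all 6 days. The difference was 0.29, 0.76, 0.83, 0.86, 1.66 and 1.64, with a mean of 1.0 ± 0.54 (SD over 6 days), and the fold was 1.22 on day 3 and 3.11 on day 10. Unlike that of Slfn2, it was above 0 from the first day measured, and its slope of 0.20 per day ranked 67th among all genes. From day 4 on it stood above the 98th percentile of all genes on every day.

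Slfn9, another long member, was also higher with vitamin C on all 6 days, by 0.65, 0.29, 0.40, 0.16, 0.46 and 0.60 on the log2 scale. Its untreated signals were between 4.43 and 5.00 and its treated ones between 4.82 and 5.39, so the arms overlapped. The slope of the difference was 0.01 per day, but 0.05 without day 3 and -0.03 without day 10. Slfn8, the neighbour with the like promoter window, was higher with vitamin C on 5 of 6 days, by 0.24 ± 0.25 on average (SD over 6 days), and by 0.69 on day 10. The signals of Slfn8 were low on all arrays, from 2.95 to 4.00.

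The other members had no steady direction. Slfn1 (4.18 to 5.12 over the 14 arrays) was higher with vitamin C on 3 of 6 days, with a mean difference of -0.01 ± 0.33 (SD over 6 days). Slfn3, known in the rat for a part in the maturation of gut epithelium, was higher with vitamin C on days 3 to 6, by 0.20 on average, and lower on days 8 and 10, by -0.52 and -0.35. Slfn4, a gene of myeloid cells, was higher on 4 of 6 days, but 1 array stood out: the treated day 8 array had 2.80 against 4.09 without vitamin C, a difference of -1.29, and all other arrays of Slfn4 lay between 3.49 and 4.32. In SKO cells the median difference of the 7 members was 0.24 for the mean of the days, beside -0.01 for all genes. That median includes Slfn2, on whose difference the family was chosen. With Slfn2 set aside, Slfn5, Slfn8 and Slfn9 were above 0. Slfn1, Slfn3 and Slfn4 were close to it, at -0.01, -0.02 and -0.08. The sign of these small means was not steady. Slfn1 was 0.09 without day 10, and Slfn3 and Slfn4 were 0.09 and 0.17 without day 8. Of all genes, 47.7% were above 0. Slfn5, Slfn9 and Slfn8 are neighbours at the Slfn5 end of the cluster.

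**Figure D2:**
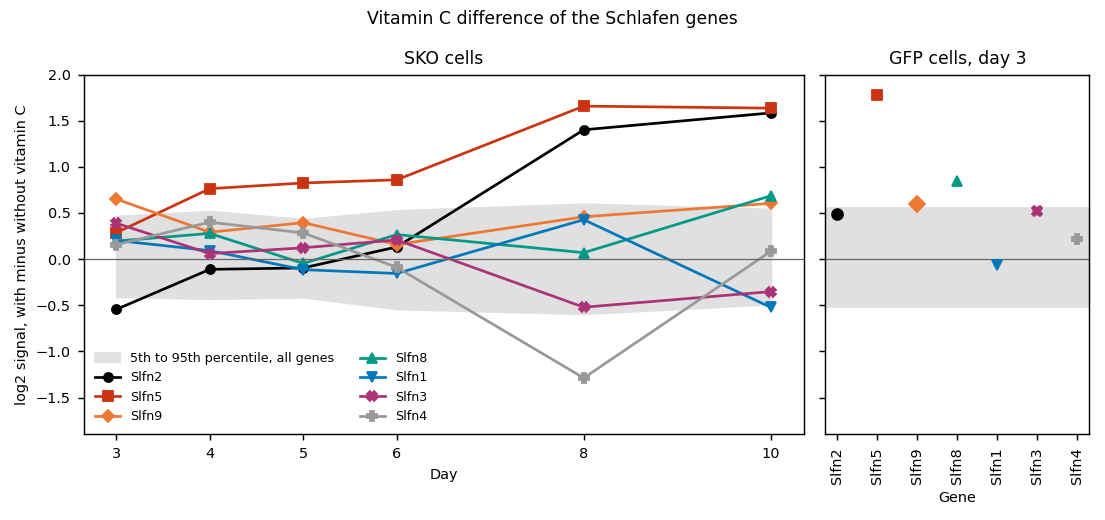
Difference in log2 signal, with minus without vitamin C, for each Schlafen gene by day in SKO cells (left) and on day 3 in GFP cells (right). The grey band spans the 5th to the 95th percentile of all genes; Slfn2 starts below it at -0.54 and ends above it at 1.58, and Slfn5 is above it from day 4 on and in GFP cells.

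GFP cells carried no virus for the 3 factors, and the treated culture had been in vitamin C for a day when it was lysed. Slfn5 had a log2 signal of 3.61 without and 5.39 with vitamin C, a difference of 1.78, or 3.44-fold, at the 99.9th percentile of all genes. Slfn8 had 3.16 and 4.00 (1.79-fold), Slfn9 had 4.53 and 5.13 (1.51-fold), and Slfn2 had 5.26 and 5.75 (1.40-fold). These are 1 array against 1, with no test. Past 1.5-fold, 3 of the 7 members were higher, beside 4.26% of all genes, and 0 were lower, beside 3.36% of all genes. The median difference of the members was 0.52, beside 0.01 for all genes. Slfn3 and Slfn4 differed by 0.52 and 0.21, and Slfn1 by -0.07. On the same day in SKO cells the difference was 0.29 for Slfn5 and -0.54 for Slfn2, and whether the viruses differed in it was not tested for these genes.

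Over the days of the SKO cells, Slfn5 rose and, with Slfn2 set aside, no other member passed the test. The mean of both arms of Slfn5 was 3.93, 3.95, 4.36, 4.46, 5.20 and 6.43 on days 3, 4, 5, 6, 8 and 10. The standard error of a difference between any 2 days was 0.28, so days 3 and 4, and days 5 and 6, were closer than this error, and days 8 and 10 were apart from the earlier days and from each other by more than it. Day 10 was 2.49 ± 0.28 (SE) above day 3, or 5.64-fold (95% interval 1.88 to 3.11, limma, adjusted p = 0.000193), from 2 arrays against 2. It was higher in both arms, by 1.82 without and by 3.17 with vitamin C, and the arrays of day 10 did not overlap those of day 3. Day 8 against day 4, which shares no array with that comparison, gave 1.25 ± 0.28 (SE), or 2.38-fold (adjusted p = 0.0425). Across any days, the F test for Slfn5 gave an adjusted p of 0.000961. In these whole cultures, more RNA per cell and more cells that hold the RNA cannot be told apart.

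Slfn2 is set aside in the counts that follow. Of the other members, 1 rose and 0 fell from day 3 to day 10, where 6.55% of all genes rose and 5.64% fell. Unadjusted, p was under 0.05 for Slfn5 and Slfn1, which were higher, and for Slfn3, which was lower. From day 4 to day 8, 1 member rose and 0 fell, beside 1.85% and 0.492% of all genes. Unadjusted, that was 1 higher and 0 lower. Differences between any days were called for 1 member and for 18.9% of all genes. The median difference of all 7 members, Slfn2 included, was 0.30 for day 10 against day 3, beside -0.02 for all genes. For day 8 against day 4 it was 0.09, beside -0.04.

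Slfn2 had unlike courses in the arms. Its mean of both arms was 4.89, 4.42, 4.87, 5.04, 4.74 and 5.92 in the order of the days. Day 10 against day 3 gave 1.03 ± 0.43 (SE). The treated arm alone was 2.10 higher on day 10 than on day 3 (4.28-fold), and the untreated arm -0.03. Without the treated array of day 10 the fitted difference was 0.32, and without the untreated one 1.75. It was 0.47 without the treated array of day 3 and 1.60 without the untreated one.

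Slfn3 had the one difference between days that pointed down and lay near the threshold. Its signals were 5.07 and 5.46 on day 3 and 4.75 and 4.40 on day 10, so these arrays did not overlap. The difference was -0.69 ± 0.21 (SE) with an adjusted p of 0.0529 by limma. It passed in 9 of 25 alternative fits, among them quantile normalization (adjusted p = 0.0267), with adjusted p from 0.0169 to 0.663. These include the fits without the untreated array of day 3 (-0.93, adjusted p = 0.0449) and without either array of day 8 (adjusted p = 0.0277). Without the treated array of day 3 it was -0.45 (adjusted p = 0.419), and without the treated array of day 10 it was -0.49 (adjusted p = 0.362). Against day 4 in place of day 3 it was -0.16. For Slfn1 the difference was 0.53 ± 0.20 (SE; adjusted p = 0.125), and it came mostly from the untreated arm, where day 10 was 0.89 above day 3. It was 0.22 without the untreated array of day 10, and 0.83 without the treated one (adjusted p = 0.0492). Slfn4, Slfn8 and Slfn9 gave 0.27 ± 0.32, -0.22 ± 0.18 and 0.30 ± 0.16 (SE), and their 95% intervals all included 0.

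**Figure D3:**
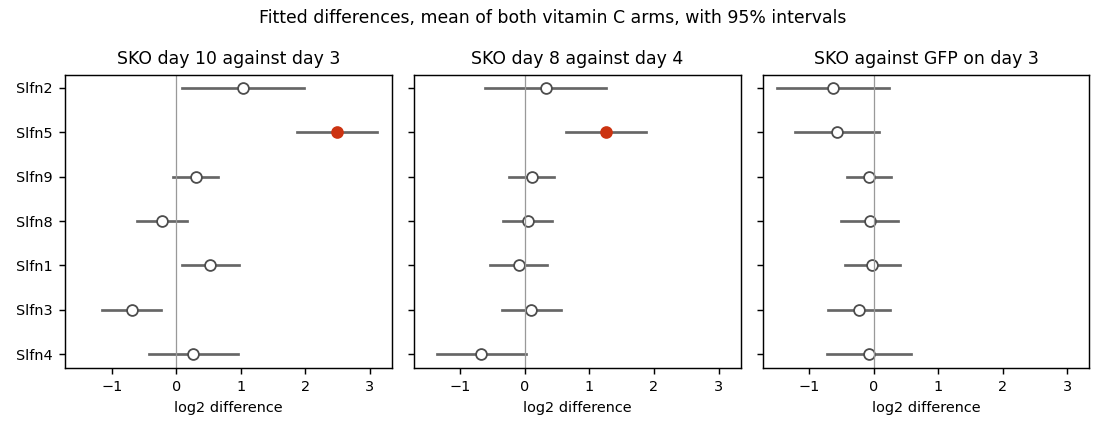
Fitted log2 differences of the 7 Schlafen genes for SKO day 10 against day 3, SKO day 8 against day 4, and SKO against GFP on day 3, each the mean of both vitamin C arms. Bars are 95% intervals and red points passed an adjusted p of 0.05. The red points are Slfn5 for both day comparisons (2.49 and 1.25), and there is none for the virus. Nothing is read from the colour of the Slfn2 points.

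The arrays were also split by a pattern that is neither virus nor vitamin C. A score over the 500 genes that alternated most between days 3 to 6 (log2 units, above 0 for the direction of days 4 and 6) was between -0.56 and -0.45 on the arrays of days 3 and 5. Day 10, which had no part in choosing these genes, had -0.45 untreated and -0.46 treated, and the GFP arrays had 0.38 and 0.47. On day 8 the pair was unequal, with 0.47 untreated and 0.08 treated, as it was on day 6, with 0.13 and 0.46, and the part of this in the vitamin C differences of those days was not tested. Day 10 against day 3 compares arrays of like score. Day 8 against day 4 stays above 0, but is not matched as well. The treated day 8 array, at 0.08, was far from the day 4 arrays, at 0.43 and 0.46. With days 3, 5 and 10 alone, the rise of Slfn5 on day 10 had an adjusted p of 0.00646, and with days 4, 6 and 8 alone the rise on day 8 had one of 0.0185. The call for day 8 against day 4 was less steady than that for day 10: it passed in 12 of 22 alternative fits. It was lost when either array of day 4, 5 or 6 was left out, with adjusted p from 0.0575 to 0.328, and was 0.86 (adjusted p = 0.42) without the treated array of day 8. The rise on day 10 passed in 25 of 25, with a log2 difference of 2.06 to 2.93.

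SKO cells against GFP cells on day 3 compare 2 arrays with 2 and ask what the 3 factors changed early. With Slfn2 set aside, 0 members were higher and 0 lower by limma, also at an unadjusted p of 0.05. Of all genes, 9.22% were higher and 8.43% lower. The largest differences were those of Slfn2, -0.62 ± 0.40 (SE), and Slfn5, -0.57 ± 0.30 (SE; adjusted p = 0.23). For Slfn5 the GFP arrays, at 3.61 and 5.39, enclosed the SKO arrays, at 3.79 and 4.08. For Slfn2 both SKO arrays, at 5.16 and 4.61, lay below the GFP arrays at 5.26 and 5.75. The 95% interval for Slfn5 reached from -1.22 to 0.08. Both differences rested on single arrays: that of Slfn2 was -1.18 without the untreated and -0.07 without the treated SKO array of day 3. That of Slfn5 was -1.05 (adjusted p = 0.0564) and -0.09 without the same arrays, and -0.96 and -0.18 without the untreated and the treated GFP array. The SKO arrays of day 3 and the GFP arrays had alternation scores of opposite sign. SKO day 4 had scores of 0.43 and 0.46, like those of the GFP arrays. Against it the differences were -1.09 for Slfn2 and -0.55 for Slfn5. With Slfn2 set aside, no member passed.

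The interferon pathway gives the setting for these values, and its genes were listed by role with earlier results of these data known. The ligands Ifnb1, Ifna4, Ifne and Ifng had mean signals between 3.22 and 3.94, all below the 33rd percentile of gene means (4.525). By limma 0 of 4 passed in either direction from day 3 to day 10 (2 higher and 0 lower at an unadjusted p of 0.05). At such low signal a missing call says little about the ligands. Ifnb1 itself, the interferon that fibroblasts make, differed by 0.11 between these days (adjusted p = 0.865). Of the 4 receptor chains, Ifngr2 fell by 0.49 (adjusted p = 0.0390) and the rest did not pass, Ifnar1 with -0.04. Of 10 signalling genes 3 rose: Irf7, a transcription factor that drives interferon genes, by 2.41; Usp18, which damps the receptor, by 2.33; and Irf9 by 1.08.

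The effectors, which carry out the antiviral response, moved in the same direction as Slfn5. From day 3 to day 10, 19 of 25 measured effectors rose and 0 fell, with a median difference of 1.56 beside -0.02 for all genes. Unadjusted, 21 were higher and 0 lower at 0.05. Among those that rose were Oas2 (3.43), Gbp3 (3.17), Oasl2 (3.08) and Ifit1 (2.83). From day 4 to day 8, 3 of 25 rose, Oas2, Parp14 and Zbp1, and 0 fell (17 and 0 unadjusted). In SKO against GFP cells 10 of 25 were lower and 0 higher (17 and 0 unadjusted), Ifit1 by -2.82, with a median of -0.95. With Slfn2 set aside, no Schlafen gene passed there. The list's mean signal went from 4.95 to 6.11 in untreated SKO cells and from 5.14 to 7.17 in treated ones. In GFP cells it was 5.35 without and 6.79 with vitamin C.

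**Figure D4:**
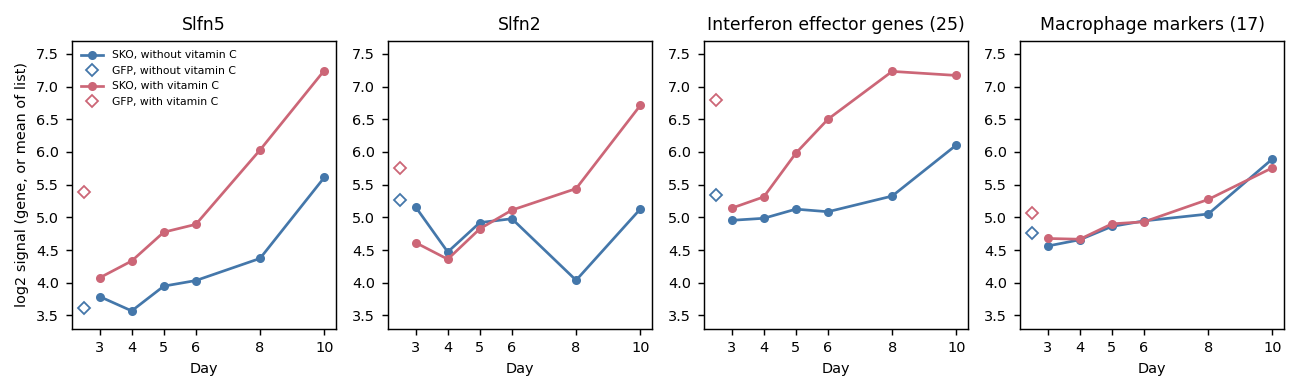
Log2 signal of Slfn5 and Slfn2, and the mean log2 signal of 25 interferon effector genes and of 17 macrophage markers, on each array by day. Filled points are SKO and open diamonds GFP cells; the red vitamin C line leaves the blue one in the first 3 panels, while in the macrophage panel both end near 6, at 5.76 and 5.89.

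Macrophage markers also rose over the days. From day 3 to day 10, 12 of 17 rose and 0 fell (14 and 0 unadjusted), with a median of 1.18, among them Mrc1 (2.78), Lyz2 (2.62), Mpeg1 (2.05) and Ctss (1.73), and from day 4 to day 8, 2 rose, Lyz2 and Laptm5. Their mean signal ran from 4.56 to 5.89 over the untreated and from 4.67 to 5.76 over the treated SKO arrays, and was 4.76 and 5.07 in GFP cells. None of the 17 has a value of 0 on this scale, where unexpressed genes also give a signal. The lowest mean was that of Aif1, at 3.70. Their part in the rise of Slfn5 with the days was not tested. With minus without vitamin C, the mean difference of these markers was 0.22 on day 8 and -0.14 on day 10. Single markers ran from -0.57 (Aif1) to 0.95 (Mpeg1) on day 8. On day 10 they ran from -0.78 (Mrc1) to 0.69 (Mpeg1). Their part in the vitamin C differences of the Schlafen genes was not tested either. Markers of lymphocytes (1 of 10 rose, Cd3g) and of neutrophils (1 of 9 rose, Ltf) stayed between 3.54 and 4.08 as list means. Fibroblast markers (8.38 to 12.5 as gene means) were present throughout, with 3 of 11 higher and 1 lower on day 10.

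Because Schlafen proteins are known as regulators of growth, genes of proliferation and of the resting state were set beside them. From day 3 to day 10, 8 of 14 proliferation genes fell and 0 rose (11 and 0 unadjusted), with a median of -0.63, among them Bub1 (-1.26), Ccne1 (-1.18), Rrm2 (-1.0) and Top2a (-0.86). Mki67, the usual marker of cycling cells, was -0.68 (adjusted p = 0.00796) and Ccnd1, a cyclin of the start of the cycle, -0.18 (adjusted p = 0.557). Of 10 genes of quiescence, Foxo1 rose (0.81) and 0 fell. With vitamin C the proliferation list differed by -0.02 on day 8 and 0.06 on day 10 as a mean. A link between these genes and the vitamin C differences of the Schlafen genes was not tested. In SKO against GFP cells 10 of 14 proliferation genes were higher.

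The genes whose profile was most like that of a member were ranked by Pearson's r over the 14 arrays, among 12590 named genes of at least the 33rd percentile in mean signal. These arrays share a time course and the vitamin C arms, so the values are descriptions. For Slfn2 the 8 highest were Emb (0.87), Plekhf1 (0.86), Bdh2 (0.85), Ube2l6 (0.83), Amt, Plac8, Ifi35 and Psmb10 (all 0.82). Without the arrays of day 10, r was 0.85 for Emb and 0.62 for Amt. The vitamin C difference Slfn2 was chosen on is part of each r, so nothing is read from which genes are listed for Slfn2. For Slfn5 they were the guanylate-binding genes Gbp3, Gbp7 and Gbp9, at 0.95 each. For Slfn9 they were Mexis (0.88), Lgals7 and Mreg (both 0.83), and for Slfn3 Psd (0.93), Atp5g1 and Lpcat3 (both 0.88). Slfn1, Slfn4 and Slfn8 were below that signal level and were not ranked.

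Among the members themselves the likeness was uneven. Slfn2 and Slfn5 had an r of 0.74 over the 14 arrays, which was 0.46 without the arrays of day 10. The vitamin C difference Slfn2 was chosen on is part of this r too. Slfn5 and Slfn9 had 0.64, and Slfn1 and Slfn3 ran against each other at -0.51. The median r with the 25 interferon effectors was 0.85 for Slfn5, 0.67 for Slfn2, 0.60 for Slfn9 and 0.42 for Slfn8. It was 0.21 for Slfn1, -0.14 for Slfn3 and -0.28 for Slfn4. The place of Slfn2 in that order is not counted, since the vitamin C difference it was chosen on is part of its r. Of the others, Slfn5, Slfn9 and Slfn8, at the Slfn5 end of the cluster, came first. Slfn1, Slfn4 and Slfn3, which follow Slfn2 along the chromosome, came last. Slfn1, Slfn4 and Slfn8 were below the signal level used for the ranking above. The r of Slfn4 also includes its outlying treated array of day 8 (2.80), and Slfn8 and Slfn9 may share signal. Little can therefore be read from this order along the cluster.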

How the data were processed

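Affymetrix arrays of 14 cultures were used, with total RNA extracted by Trizol per the labels' protocols. The deposited table holds, for each array, a log2 signal per probe that the authors made with RMA and Partek, per the submitters' processing notes, which name no versions. That the scale is log2 was read from the range (0.72 to 14.1). RMA compresses differences of weak genes. Of 28853 probes, 21789 had 1 gene symbol, and a gene was represented by its probe of highest mean, which gave 19938 genes. Tests used limma 3.58.1 in R 4.3.3 on the 12 SKO arrays, fitting day and vitamin C (5 residual degrees of freedom), or on all 14 for the virus (6). A gene passed at 0.05 after the Benjamini-Hochberg adjustment of p over the 19938 genes. The arms are paired by day through that term. The scripts were tested on simulated data. The members, lists and tests were chosen with earlier results of these data known. All 7 members are named, with 8 genes most like Slfn2, 3 for each other member of sufficient signal, up to 4 genes per list, a few set genes and the neighbours. Figures used matplotlib 3.10.9.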

Additional observations from a re-analysis of the deposited data

How the results depend on the processing

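The treated and untreated arrays of a day are paired in each fit of the days through the day term. Alternatives were other normalizations, filters, variance models and day codings, and leaving out each array, day sets being added after the data were seen. Slfn2 is set aside in the counts of members called that follow. Members called for day 10 against day 3, 1 in the report, were 2 under quantile normalization, median centring and array weights. They were also 2 under an intensity trend, a vitamin C slope and the filter on low signal (4 members tested, Slfn2 included). They were between 1 and 2 when an array was left out. For day 8 against day 4 the count of 1 became 0 under quantile normalization, array weights and no vitamin C term, and was between 0 and 2 with an array left out. For any day it was 0 within days 4, 6 and 8, and between 1 and 2 with an array left out. For the virus it was 0 throughout. Counts of all genes moved as well. For day 8 against day 4, 467 became 173 with array weights, 170 with no vitamin C term and 297 within days 4, 6 and 8, and lay between 71 and 795 with an array left out. For day 10 against day 3, 2430 became 345 with day 5 as the base and lay between 964 and 2696. For any day, 3773 became 1232 within days 3, 5 and 10, 175 within days 4, 6 and 8, 2382 without day 10 and 1991 without day 3, and lay between 2273 and 4175. For the virus, 3519 became 1551 against SKO day 4 and lay between 1298 and 3951. Fewer arrays were fitted in the day sets and with an array left out; for the other changes the cause was not tested. Slfn5 lost its call for any day within days 4, 6 and 8 (adjusted p = 0.0578). Slfn4 fell on day 8 against day 4 without the untreated array of day 8 (-1.40, adjusted p = 0.00924) and was 0.05 without the treated one.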

Other observations

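The relatives outside the 7 members add little to the family's picture. Slfn10-ps, the pseudogene between Slfn8 and Slfn2, had a vitamin C difference of -0.36, 0.29, -0.23, 0.14, 0.96 and 0.55 on days 3, 4, 5, 6, 8 and 10 of the SKO cells. As in Slfn2, it was largest on days 8 and 10, and its slope of 0.14 per day ranked 219th of all genes. Its 5.06 in the treated array of day 8 stood above every untreated SKO array, which ran from 3.90 to 4.64. In GFP cells it was 4.55 without and 5.17 with vitamin C. Slfnl1, a Schlafen-like gene, kept between 4.42 and 4.95 on all arrays. Slfn14 had no probe of its own and was not analysed here.

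The genes beside the cluster were measured as well. Unc45b, a chaperone of myosin, and the antisense genes Unc45bos and Slfn5os lie before Slfn5 in the RefSeq order, and Ap2b1, Rasl10b and Gas2l2 lie after Slfn14. Day 10 against day 3 of the SKO cells gave differences between -0.21 (Ap2b1) and 0.25 (Gas2l2), with a lowest adjusted p of 0.43 (limma). Slfn5os differed by 0.18 between days 10 and 3 (adjusted p = 0.681), where Slfn5 rose by 2.49. Their mean vitamin C differences in SKO cells were between -0.19 (Gas2l2) and 0.16 (Unc45bos). Rasl10b alone passed for the virus, at -0.72 in SKO against GFP cells (adjusted p = 0.0119).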
